A study of Mus musculus with 6 samples.

Results

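The 10 genes described here are the PDGF and FGF ligands and receptors of mouse aorta: the ligands Pdgfa, Pdgfb, Pdgfc, Pdgfd, Fgf1 and Fgf2 and the receptors Pdgfra, Pdgfrb, Fgfr1 and Fgfr2. They were chosen by name, each matched 1 row of a table of 55335 genes, and all 10 were among the 16612 genes that passed the filter on low counts. The aortas came from wild-type mice (WT, strain written c57b6l in the labels, and C57BL/6 males in the study's methods) that were 6 weeks old in the young group and 6 months old in the aged group. Each group held 3 mice with 1 library each, and no mouse received a treatment that the labels name. Adipose tissue was dissected from the vessel before RNA was extracted, so a library holds the RNA of every cell type left in the wall. The comparison asks which transcripts of the aortic wall differ between the ages.

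Platelet-derived growth factors are secreted dimers that bind receptor tyrosine kinases on mesenchymal cells. PDGF receptor alpha is a marker of fibroblasts, and PDGF receptor beta is found on smooth muscle cells, pericytes and fibroblasts, where PDGF-B released by endothelium recruits mural cells to vessels. Fibroblast growth factors bind their own tyrosine kinase receptors together with heparan sulfate, and both families signal through RAS and ERK, PI3 kinase and phospholipase C gamma. In injured arteries these factors are known for driving smooth muscle cells to divide and migrate.

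In GENCODE M21 (build GRCm38) Pdgfa lies on the minus strand at chr5:138976014-138997370, Pdgfb on the minus strand at chr15:79995874-80014977, Pdgfc on the plus strand at chr3:81036416-81214040 and Pdgfd on the plus strand at chr9:6168584-6378850. Pdgfra lies on the plus strand at chr5:75152292-75198215 and Pdgfrb on the plus strand at chr18:61045150-61085061. Fgf1 lies on the minus strand at chr18:38838673-38929472, Fgf2 on the plus strand at chr3:37348346-37410108, Fgfr1 on the plus strand at chr8:25513654-25575718 and Fgfr2 on the minus strand at chr7:130162451-133123350. The exons of an antisense gene, 6330403L08Rik, overlap 26.07% of the exonic bases of Pdgfa, and those of Nudt6 overlap 9.44% of the exonic bases of Fgf2 on the opposite strand. The strand setting of the counting is not given in the sources used here, so reads of such pairs may not have been told apart. Ctbp2, on the same strand as Fgfr2, overlaps 3.04% of its exonic bases, where strand cannot separate reads, and had 645 to 1023 counts per library beside 1152 to 3818 for Fgfr2.

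The libraries held between 31049632 and 45832185 counts, and the lowest count of any of the 10 genes in any library was 304, with an exact Poisson interval of 271 to 340 that covers counting error only. The 12 smooth muscle markers, led by Acta2, Myh11 and Tagln, summed to 29788 to 42753 CPM (counts divided by the TMM-normalized library size), so the defining markers of the labelled tissue were present. Young replicate 1 held 305.6 CPM of Xist and 1.09 CPM of the Y-linked gene Ddx3y, against 0.204 to 0.636 and 44.8 to 65.6 CPM in the other libraries, so it did not match the stated sex of the mice. Its cardiac muscle markers summed to 382 CPM, against 87.9 to 107 CPM elsewhere. Aged replicate 2 stood apart from the other aged libraries on the principal component that explained most variance, at -13.4 against 53.8 and 62.7, with the young libraries at -52.2 to -10.3. Its adipocyte markers summed to 5226 CPM, against 1191 to 2989 CPM elsewhere. Genes of the mitochondrial genome took 14.9% to 21.2% of counts in young and 23.1% to 30.4% in aged libraries. The values below are therefore given with and without young replicate 1 and aged replicate 2 where a result rests on them.

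Upstream sequence is shown for the receptors with the largest differences in each direction, Pdgfra and Fgfr2, and for the ligands Pdgfc and Pdgfd, whose windows held a searched motif. RefSeq start sites (GRCm38.p6) were matched for 6 of the 10 genes, and the windows are the 250 bases before the start, 5′ to 3′, with motif matches in capitals. Windows of Pdgfa and Fgf2 overlapped annotated exons and are not shown.
Pdgfra, plus strand, chr5:75152001-75152250: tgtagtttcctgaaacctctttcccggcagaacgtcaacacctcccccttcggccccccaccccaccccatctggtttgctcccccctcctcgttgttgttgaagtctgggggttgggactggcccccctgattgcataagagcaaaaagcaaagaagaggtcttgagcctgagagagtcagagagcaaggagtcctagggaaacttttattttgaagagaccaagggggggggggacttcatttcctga
Fgfr2, minus strand, chr7:130266809-130267058: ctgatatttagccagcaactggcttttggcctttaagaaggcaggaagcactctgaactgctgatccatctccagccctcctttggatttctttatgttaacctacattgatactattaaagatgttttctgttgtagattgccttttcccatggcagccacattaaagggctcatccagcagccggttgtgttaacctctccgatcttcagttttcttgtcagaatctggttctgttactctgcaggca
Pdgfc, plus strand, chr3:81036166-81036415: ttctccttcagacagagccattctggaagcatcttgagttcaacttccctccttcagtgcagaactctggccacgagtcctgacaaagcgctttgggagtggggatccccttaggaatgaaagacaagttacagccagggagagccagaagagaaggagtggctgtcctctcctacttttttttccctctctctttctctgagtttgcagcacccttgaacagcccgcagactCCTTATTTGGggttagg
Pdgfd, plus strand, chr9:6168236-6168485: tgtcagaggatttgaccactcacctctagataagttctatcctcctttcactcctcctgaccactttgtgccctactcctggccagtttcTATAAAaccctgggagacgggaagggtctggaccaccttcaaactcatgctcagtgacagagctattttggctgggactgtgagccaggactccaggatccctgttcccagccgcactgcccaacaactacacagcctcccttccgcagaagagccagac
The motifs searched on both strands were the GC box GGGCGG, the AP-1 site TGANTCA, the TATA box TATAAA, the CCAAT box CCAAT and the CArG box, the element bound by serum response factor in smooth muscle genes. Pdgfc held a CArG box at position -17 from the start, a motif in 1.47% of 32851 windows of the same length. Pdgfd held TATAAA at position -160, a motif in 12.37% of windows. The windows of Pdgfra and Fgfr2 held none of the 5, of which the GC box occurs in 32.74%, the CCAAT box in 33.85% and the AP-1 site in 6.75% of windows. The GC content was 54.4% for Pdgfra, 44.0% for Fgfr2, 50.8% for Pdgfc and 53.6% for Pdgfd, beside a median of 52.4% over all windows. These matches describe the letters of the windows only.

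Between the ages, edgeR called 0 of the 10 genes at an adjusted p below 0.05, as it did 0% of all 16612 genes, whose lowest adjusted p was 0.189. At an unadjusted p below 0.05, 1 member was at a higher level in aged aorta (Pdgfra, where 5.56% of all genes were) and 3 were at a lower level (Pdgfa, Pdgfd and Fgfr2, where 4.82% of all genes were). DESeq2 called 2 of the 10, Pdgfra and Fgfr2, against 2.03% of all genes, and limma on log2 FPKM called 0. The 3 aged libraries lay above all 3 young libraries for Pdgfra and below them for Pdgfa, Pdgfc, Pdgfd, Pdgfrb and Fgfr2, and the groups overlapped for Pdgfb, Fgf1, Fgf2 and Fgfr1. That is 1 of 10 above and 5 of 10 below, where 7.74% and 8.78% of all genes were. The median log2 difference (aged minus young) was -0.38 over the 10 genes and 0.02 over all genes tested. In RNA of whole tissue, fewer cells of a type and less RNA per cell cannot be told apart.

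**Figure D1:**
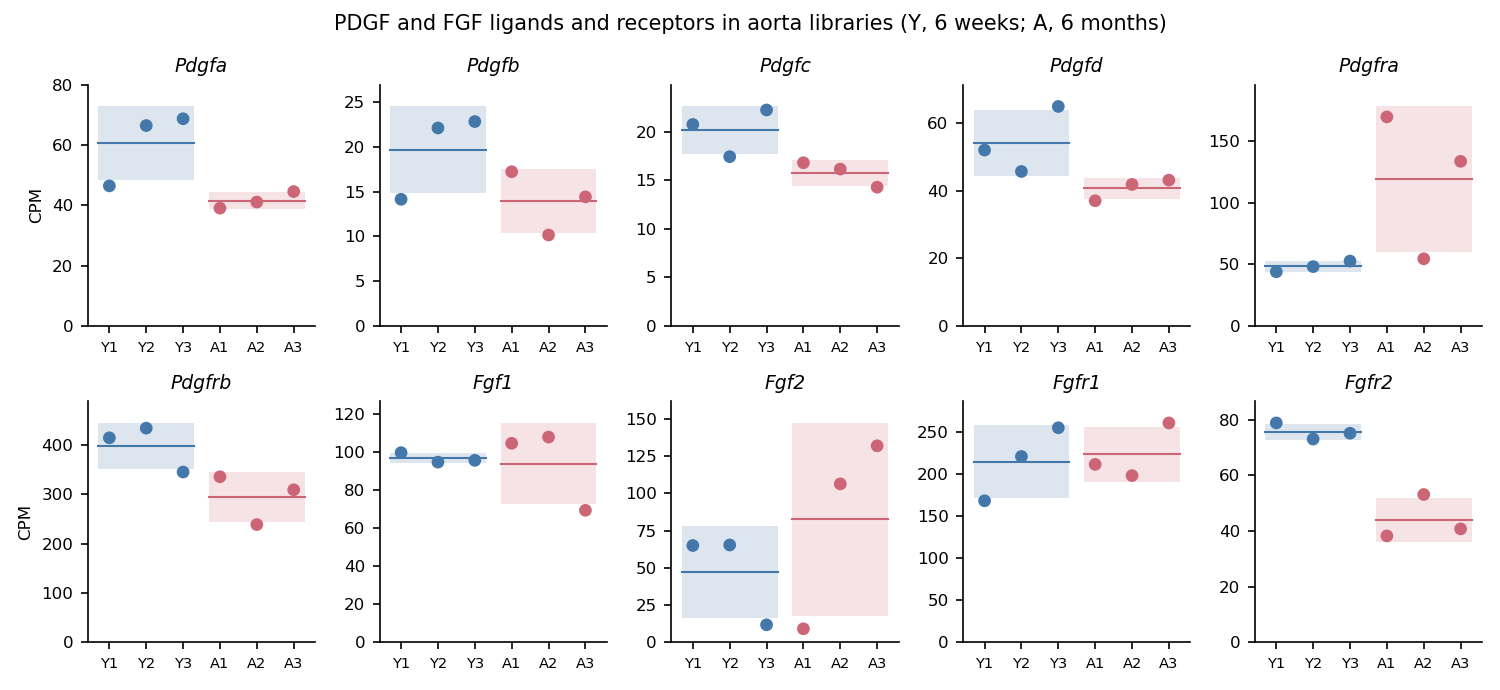
CPM of each of the 10 genes in each library (points; young and aged groups of 3), with the group mean as a line and ± 1 SD as a band. Pdgfra separates 2 aged libraries (170 and 134 CPM) from the other 4 (44.0 to 54.5). Fgf2 ranges from 9.15 to 132 CPM, with young replicate 3 and aged replicate 1 lowest and aged replicates 2 and 3 highest.

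Pdgfa encodes the A chain, the ligand that binds only the alpha receptor as a homodimer. It was at 46.4, 66.4 and 68.7 CPM in the young libraries and 39.1, 41.1 and 44.6 CPM in the aged libraries. The groups did not overlap, but young replicate 1 lay close to the highest aged library. The log2 difference was -0.54 (SE 0.19, 95% interval -0.98 to -0.10), with an edgeR adjusted p of 0.418. The unadjusted p of 0.0227 by edgeR was 0.0828 without young replicate 2, 0.0871 without young replicate 3 and 0.0613 without aged replicate 1. It was 0.0469 without aged replicate 2 and 0.0385 without aged replicate 3. Without young replicate 1 the edgeR p was 0.0043 (adjusted 0.370), with a log2 difference of -0.69. Without both young replicate 1 and aged replicate 2 the edgeR p was 0.0080 (adjusted 0.178). The antisense gene 6330403L08Rik had 1622, 1178 and 115 counts in the young libraries and 769, 1083 and 629 in the aged ones, so its low library, young replicate 3, was the one in which Pdgfa was highest.

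Pdgfb encodes the B chain, which binds both receptors and in vessels comes chiefly from endothelium. It was at 14.1, 22.1 and 22.8 CPM in young and 17.2, 10.2 and 14.4 CPM in aged libraries, and young replicate 1 lay among the aged values. The log2 difference was -0.50 (SE 0.27, 95% interval -1.14 to 0.14), with an edgeR adjusted p of 0.561. It was -0.31 without aged replicate 2 (edgeR adjusted p 0.632), -0.68 without young replicate 1 (0.417) and -0.50 without both (0.300). Endothelial markers, led by Pecam1, Vwf and Eng, did not share its sign: 12 of 12 were tested, 11 had a positive log2 difference, and they summed to 622 to 674 CPM in young and 531 to 2219 CPM in aged libraries, with the high value in aged replicate 3. Relative to the mean of these markers, Pdgfb differed by -1.06 on the log2 scale (exact two-sided permutation test, p = 0.2, adjusted over 8 ratios 0.4), and by -0.59 without aged replicate 3.

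Pdgfc and Pdgfd encode the C and D chains, which carry a CUB domain and bind receptors only after proteases remove it. Pdgfc was at 20.8, 17.4 and 22.3 CPM in young and 16.8, 16.2 and 14.3 CPM in aged libraries, a narrow gap between groups. Its log2 difference was -0.35 (SE 0.17, 95% interval -0.76 to 0.05, edgeR adjusted p 0.526). Pdgfd was at 52.0, 45.7 and 64.9 CPM in young and 37.0, 41.8 and 43.1 CPM in aged libraries. Its log2 difference was -0.41 (SE 0.18, 95% interval -0.83 to -0.0010, edgeR adjusted p 0.482). The unadjusted p of 0.0496 was at the threshold: it was 0.0528 with RLE size factors, 0.0634 by DESeq2 and 0.198 without young replicate 3, by edgeR, where the log2 difference was -0.26. The ratio of Pdgfc to Pdgfd differed between ages by 0.05 on the log2 scale, with SDs of 0.11 in young and 0.23 in aged libraries (exact two-sided permutation test, p = 0.9), and the ratio of Pdgfa to Pdgfb differed by -0.02, with SDs of 0.07 and 0.42 (p = 1 by the same exact test).

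The 4 PDGF ligands thus each had a negative log2 difference, a sign that each kept under all 16 alternative settings, and none passed the threshold under any of them. As shares of the ligands' summed FPKM, a unit that allows for transcript length, their proportions overlapped between the ages. Pdgfa made up 42.7% ± 4.80 in young and 40.8% ± 1.15 in aged libraries (SD, n = 3), and Pdgfd 38.1% ± 5.05 and 39.4% ± 2.22. Pdgfb made up 10.4% ± 1.59 and 10.2% ± 2.74, and Pdgfc 8.84% ± 1.47 and 9.50% ± 1.17.

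**Figure D2:**
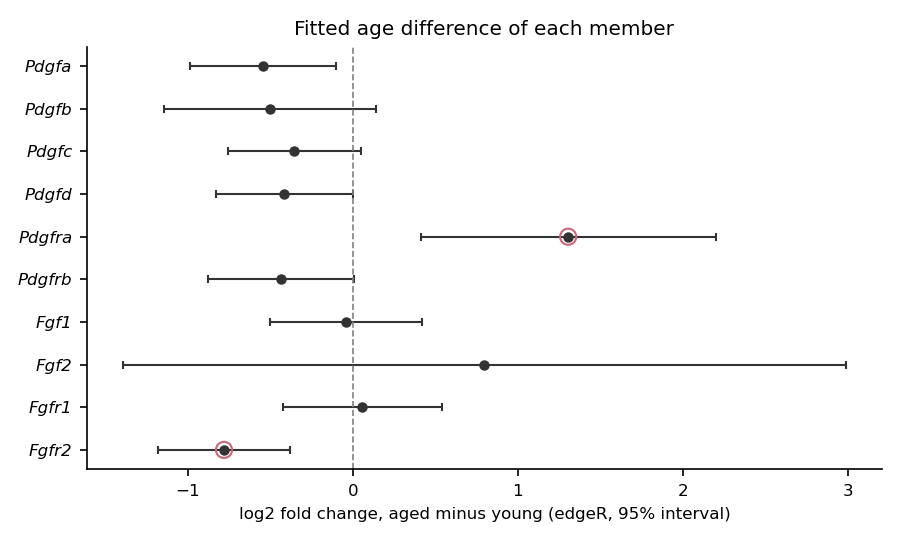
Log2 difference in CPM (aged minus young) of the 10 genes from edgeR, with 95% intervals as bars, and a red ring where DESeq2 gave an adjusted p below 0.05. Pdgfra lies farthest to the positive side at 1.31 and Fgfr2 farthest to the negative side at -0.78, and the interval of Fgf2 is the widest, from -1.39 to 2.99.

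Pdgfra encodes the alpha receptor, which binds the A, B and C chains. It was at 44.0, 48.2 and 52.7 CPM in young libraries and 170, 54.5 and 134 CPM in aged libraries. The high values came from aged replicates 1 and 3, and aged replicate 2 lay just above the young range. Mean levels were 48.3 ± 4.35 CPM in young and 119 ± 58.9 CPM in aged aorta (SD, n = 3), and the fitted fold was 2.47 (log2 difference 1.31, SE 0.38, 95% interval 0.41 to 2.20). The adjusted p was 0.382 by edgeR and 0.0399 by DESeq2. Without aged replicate 2 the log2 difference was 1.65 with an edgeR adjusted p of 0.0344, a setting in which edgeR called 0.642% of 17147 genes. Without young replicate 1 it was 1.25 (edgeR adjusted p 0.417), and without both libraries 1.59 (edgeR adjusted p 0.0670).

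Pdgfrb encodes the beta receptor, which binds the B and D chains. It was at 414, 434 and 345 CPM in young and 335, 238 and 309 CPM in aged libraries. Aged replicate 2 was lowest, and young replicate 3 and aged replicate 1 were close to each other. Its log2 difference was -0.43 (SE 0.19, 95% interval -0.88 to 0.01), with an edgeR adjusted p of 0.486. It was -0.30 without aged replicate 2 (edgeR adjusted p 0.492), -0.40 without young replicate 1 (0.517) and -0.27 without both (0.508). Smooth muscle markers were 12 of 12 tested, with 11 negative log2 differences and a median of -0.19. Relative to their mean, Pdgfrb differed by -0.13 between ages on the log2 scale (SD 0.32 in young and 0.39 in aged libraries, exact two-sided permutation test p = 0.7).

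The log2 ratio of Pdgfra to Pdgfrb was -3.23, -3.17 and -2.71 in young and -0.98, -2.13 and -1.21 in aged libraries. All 3 aged libraries lay above the young ones, by 1.60 on average or 3.03-fold (exact two-sided permutation test, p = 0.1, the smallest that 3 against 3 allow, adjusted over 8 ratios 0.267). In summed FPKM of the PDGF receptors, Pdgfra made up 6.29% ± 1.21 in young and 17.3% ± 5.52 in aged libraries (SD, n = 3), with 11.1% in aged replicate 2.

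Most fibroblast and leukocyte markers moved with Pdgfra. Of 14 fibroblast markers, led in level by Col3a1, Col1a2 and Gsn and none at 0 in any library, 11 had a positive log2 difference, with a median of 1.48, and 8 of these were at an unadjusted p below 0.05 by edgeR. The exceptions were Col3a1 (-0.28), Mfap5 (-0.17) and Col1a2 (-0.05), so the most abundant collagens of the list did not follow Pdgfra, and in aged replicate 3 Col3a1 lay below and Col1a2 within the young range. The summed level of the list was 8705 to 10410 CPM in young libraries and 17888, 6490 and 13677 CPM in aged replicates 1, 2 and 3. Of 12 leukocyte markers, led by the macrophage genes Lyz2, C1qa and C1qb, 11 were tested, all with a positive difference, the smallest 0.048. They summed to 108 to 146 CPM in young libraries and 487, 149 and 323 CPM in the aged ones. Ptprc and Cd79a of this list did not follow Pdgfra. Ptprc was at 4.28 CPM in young replicate 2 and 3.04 CPM in aged replicate 1. Cd79a was at 1.03 CPM in young replicate 2 and 0.12 CPM in aged replicate 1. Cd3e, a T cell marker, did not pass the filter on low counts. Pdgfra was thus high in the same aged libraries as the sums of both lists. Relative to the mean of the fibroblast markers, its log2 ratio was -2.42, -2.38 and -2.40 in young and -2.20, -2.02 and -2.28 in aged libraries. That is a difference of 0.23 (exact two-sided permutation test, p = 0.1, adjusted over 8 ratios 0.267). On the same log2 CPM scale Pdgfra itself was at 5.46, 5.59 and 5.72 in young and 7.41, 5.77 and 7.06 in aged libraries. Its log2 difference of 1.31 came from the edgeR fit, a different measure.

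**Figure D3:**
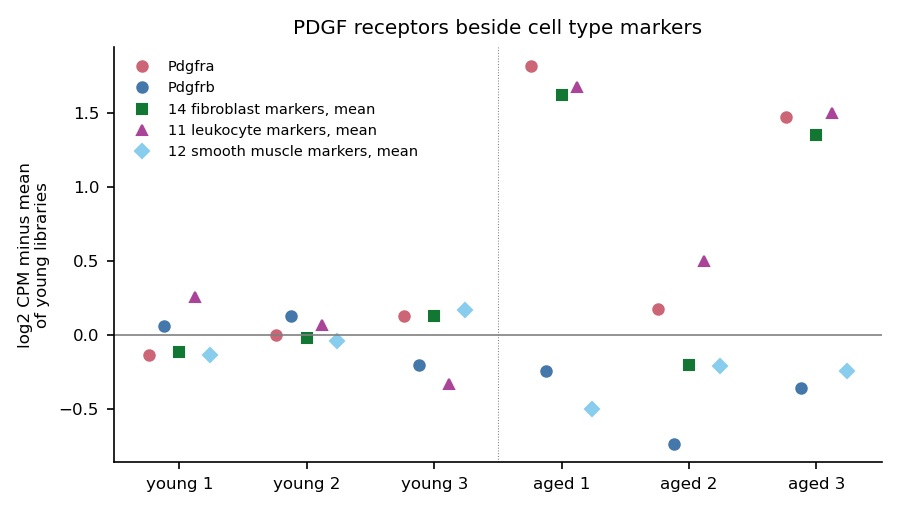
Log2 CPM minus the mean of the young libraries for Pdgfra, Pdgfrb and the means of 14 fibroblast, 11 leukocyte and 12 smooth muscle markers, in each of the 6 libraries. In aged replicates 1 and 3 Pdgfra, fibroblast and leukocyte markers all lie above the young libraries, whereas in aged replicate 2, where fibroblast markers summed to 6490 CPM, Pdgfra lies close to them and Pdgfrb is at its lowest.

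The 3 genes whose pattern over the 6 libraries was most like that of Pdgfra, by the root mean square difference of centred log2 CPM over 14084 genes, were Tmem176a (0.061), Adam22 (0.071) and Rnase4 (0.094), where the median gene was at 0.82. Rnase4, which encodes a secreted ribonuclease, was at 123, 121 and 147 CPM in young and 398, 134 and 340 CPM in aged libraries, with aged replicate 2 again near the young libraries. Tmem176a, a membrane protein gene, was at 6.15 to 6.64 CPM in young and 22.1, 7.74 and 18.4 CPM in aged libraries.

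Fgf1 encodes acidic FGF, which can activate all FGF receptors. It was at 99.9, 94.9 and 95.8 CPM in young and 105, 108 and 69.5 CPM in aged libraries. Aged replicates 1 and 2 lay above the young libraries and aged replicate 3 below them. The log2 difference was -0.04 (SE 0.20, 95% interval -0.50 to 0.42, edgeR adjusted p 0.953), and it was 0.14 without aged replicate 3.

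Fgf2 encodes basic FGF, a ligand held in the heparan sulfate of the matrix. It was at 65.0, 65.4 and 11.8 CPM in young libraries and 9.15, 106 and 132 CPM in aged libraries, or 3151, 2276 and 406 counts and 304, 4015 and 3729 counts. Young replicate 3 and aged replicate 1 were low and the others high, so the highest library was 14.4-fold above the lowest with no split by age. The log2 difference was 0.80 (SE 0.93, 95% interval -1.39 to 2.99, edgeR adjusted p 0.778). It was 0.35 without young replicate 3 and 1.33 without aged replicate 1. The SD of Fgf2 over the 6 libraries, 1.64 on the log2 scale, exceeded that of 98.3% of 14085 genes, whereas that of Pdgfra exceeded 89.1% and those of the other 8 members 27.7% to 68.9%. Nudt6, on the opposite strand, had 115, 63 and 62 counts in young and 55, 106 and 50 counts in aged libraries, below Fgf2 in each library.

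The genes nearest to Fgf2 by the same measure were Nek7 (0.37), Mysm1 (0.41) and Ptp4a1 (0.55), at a median of 1.54 over all genes. Nek7, a kinase of mitosis and of the inflammasome, was at 101, 74.1 and 12.4 CPM in young and 12.5, 84.6 and 101 CPM in aged libraries. Mysm1, a histone H2A deubiquitinase, was at 19.9, 24.9 and 2.77 CPM and 1.62, 21.9 and 22.9 CPM. Both were low in young replicate 3 and aged replicate 1, as Fgf2 was. No gene lay within 0.25 of Fgf2, against 66 for Pdgfra and 354 for Fgfr2, which both varied less over the libraries.

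**Figure D4:**
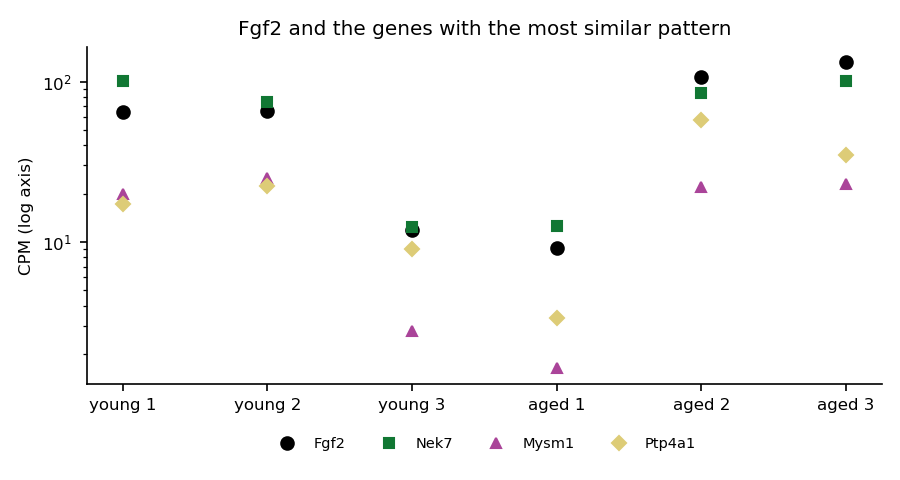
CPM of Fgf2, Nek7, Mysm1 and Ptp4a1 in each of the 6 libraries on a log axis. Each of the 4 genes is at its lowest levels in young replicate 3 and aged replicate 1, where Fgf2 is at 11.8 and 9.15 CPM.

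Fgfr1 encodes the FGF receptor typical of mesenchymal cells. It was at 168, 221 and 255 CPM in young and 212, 198 and 261 CPM in aged libraries, with young replicate 1 lowest and the groups overlapping. Its log2 difference was 0.06 (SE 0.21, 95% interval -0.42 to 0.54, edgeR adjusted p 0.936), a sign that turned to -0.15 with limma on log2 FPKM.

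Fgfr2 encodes a receptor whose splice forms divide between epithelium and mesenchyme, which gene counts do not separate. It was at 78.8, 73.0 and 75.1 CPM in young and 38.2, 53.1 and 40.8 CPM in aged libraries. The young libraries were close together and all above the aged ones, of which replicate 2 was the nearest to them. Means were 75.6 ± 2.93 CPM in young and 44.0 ± 7.96 CPM in aged aorta (SD, n = 3), and the fitted level was 1.72-fold lower in aged aorta (log2 difference -0.78, SE 0.17, 95% interval -1.18 to -0.38). Its unadjusted p ranked 103 of all genes, and the adjusted p was 0.368 by edgeR and 0.0233 by DESeq2. Without aged replicate 2 the log2 difference was -0.94 (edgeR adjusted p 0.0623), without young replicate 1 -0.74 (0.393), and without both -0.90 (0.114).

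The log2 ratio of Fgfr1 to Fgfr2 was 1.09, 1.60 and 1.76 in young and 2.47, 1.90 and 2.68 in aged libraries, so that the aged libraries were all higher, by 0.86 (exact two-sided permutation test, p = 0.1, adjusted over 8 ratios 0.267). Fgfr2 made up 25.6% ± 4.68 of the summed FPKM of both FGF receptors in young and 16.0% ± 3.88 in aged libraries (SD, n = 3). The share of Fgf2 among the FGF ligands was 34.4%, 35.7% and 8.98% in young and 6.52%, 44.2% and 60.5% in aged libraries. The log2 ratio of Fgf1 to Fgf2 differed by -0.52 between ages, with SDs of 1.41 and 2.34 (exact two-sided permutation test, p = 0.6).

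**Figure D5:**
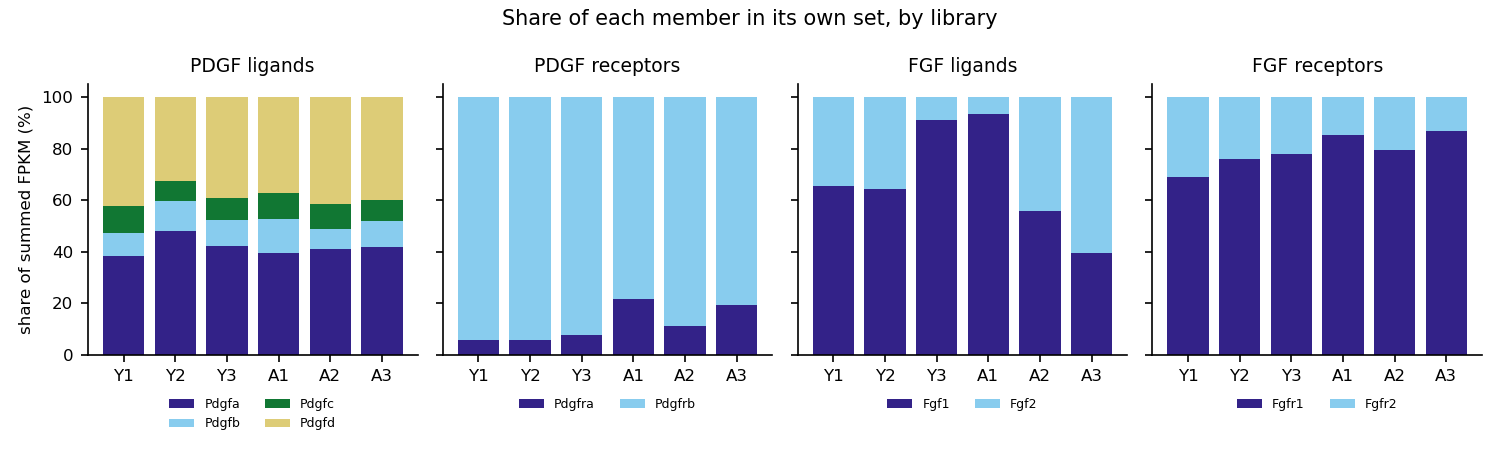
Share of each gene in the summed FPKM of its set (PDGF ligands, PDGF receptors, FGF ligands, FGF receptors), as stacked bars in percent for each library (Y, young; A, aged). Pdgfa makes up 38.3% to 47.9% of the PDGF ligands over the 6 libraries, and Pdgfra takes 5.48% to 7.68% of the PDGF receptors in young and 11.1% to 21.7% in aged libraries.

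The genes most like Fgfr2 over the 6 libraries were Kcnc4 (0.094), a potassium channel gene, Eln (0.095), which encodes elastin, and Osbpl3 (0.10), with a median of 0.52 over all genes. Eln was at 5279, 5001 and 4834 CPM in young and 2210, 3335 and 2357 CPM in aged libraries, so that aged replicate 2 was again the nearest to the young group. For the other members, whose levels varied less, the nearest genes were Zfp335 for Pdgfa (0.047), Trim46 for Pdgfb (0.060), Klf16 for Pdgfc (0.041), Gm15545 for Pdgfd (0.048), Mettl2 for Pdgfrb (0.054), Dcun1d1 for Fgf1 (0.045) and Cxxc1 for Fgfr1 (0.039). From 381 (Pdgfb) to 3175 (Pdgfc) genes lay within 0.25 of these members, so each nearest gene stood among many similar ones.

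In mean FPKM over the 6 libraries, the order of levels was Pdgfrb (57.9), Fgfr1 (20.1), Fgf1 (15.9), Pdgfa (15.1), Pdgfd (13.8), Fgf2 (8.40), Pdgfra (7.33), Fgfr2 (5.35), Pdgfb (3.71) and Pdgfc (3.23). Pdgfrb lay above Fgfr1 in all 6 libraries. Every other pair of neighbours in this order changed places in at least 1 library, so the order within these pairs does not stand beyond the spread. Genes farther apart could still be separated, as Fgfr1 (at least 16.2 FPKM) was from Pdgfb (at most 5.46 FPKM). Fgf1 lay above Pdgfa in 3 libraries and Fgf2 above Pdgfra in 4.

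Of 26 other PDGF and FGF ligands and receptors, 13 passed the filter on low counts, and 12 of the others were FGF genes such as Fgf4, Fgf8 and Fgf21. By edgeR 0 of the 13 passed the adjusted threshold and 2 were at an unadjusted p below 0.05, both with a positive log2 difference (Fgf7 and Fgfr4), and DESeq2 called Fgf7. Their median log2 difference was 0.70, beside 0.02 for all genes, with 10 positive and 3 negative differences. That median was the value of Fgf10 (SE 0.54, edgeR adjusted p 0.663), which had only 13 to 45 counts per library. Fgf9 and Fgf18, also with positive differences, had 7 to 41 and 27 to 87 counts. The groups overlapped for Fgf9, Fgf10 and Fgf18. Of the 13 genes, 2 had all aged libraries above the young ones and 0 had them below, where 7.74% and 8.78% of all genes did. The median is that of a gene with few counts, so it is not taken as a rise of the whole list, which was not tested. Fgf7, the mesenchymal ligand of an epithelial form of FGFR2, was at 3.65, 3.02 and 4.25 CPM in young and 13.5, 4.77 and 12.3 CPM in aged libraries. As with Pdgfra, aged replicate 2 lay close to the young libraries, and the log2 difference was 1.48 (SE 0.41), with an adjusted p of 0.377 by edgeR and 0.0340 by DESeq2. Fgfr4, an FGF receptor, was at 8, 0 and 10 counts in young and 26, 39 and 53 counts in aged libraries, low in all of them (edgeR adjusted p 0.408). Fgfr3 ranged from 3.85 to 6.87 CPM in 5 libraries and was at 28.8 CPM in aged replicate 3. Fgf13, an intracellular FGF homologue, and Fgfrl1, a receptor without a kinase domain, had log2 differences of -0.40 and -0.23 (edgeR adjusted p 0.578 and 0.643).

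Among 26 genes for ligand processing and co-receptors 25 were tested, with 0 calls by edgeR or DESeq2, and 2 were at an unadjusted p below 0.05, both with negative log2 differences. They were Hspg2 (-0.58), which encodes the heparan sulfate proteoglycan perlecan, and Ndst1 (-0.55), which encodes a sulfotransferase of heparan sulfate synthesis. The next genes by p were Sdc3 (0.58), a syndecan, Ext1 (-0.29), a heparan sulfate polymerase, and Flrt2 (0.85), and the median over the list was 0.16.

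Among 32 adaptors and kinases downstream of the receptors, edgeR and DESeq2 called 0, 2 (Pik3r1 and Stat3) were at an unadjusted p below 0.05 with a positive log2 difference, and the median was -0.04. Pik3r1, a regulatory subunit of PI3 kinase, was at 48.6 to 56.8 CPM in young and 71.6 to 73.9 CPM in aged libraries, with a log2 difference of 0.49 (edgeR adjusted p 0.379). Stat3, a transcription factor activated by cytokine and growth factor receptors, had a log2 difference of 0.59 (edgeR adjusted p 0.448), and the adaptors Crkl and Cbl had differences of -0.43 and -0.45 (edgeR adjusted p 0.507 and 0.508).

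Of 18 feedback inhibitors and FGF targets 17 were tested and edgeR called 0. At an unadjusted p below 0.05 there were 3 with a positive log2 difference (Ccnd1, Sh2b3 and Spred1) and 1 with a negative one (Dusp5), and DESeq2 called Ccnd1. Ccnd1, which encodes cyclin D1 and is induced by many growth factors, was at 8.61, 11.01 and 10.99 CPM in young and 49.3, 23.8 and 45.2 CPM in aged libraries. All aged libraries lay above the young ones, and the log2 difference was 1.95 (SE 0.29), with an adjusted p of 0.259 by edgeR and 1.72e-06 by DESeq2. Sh2b3 and Spred1, inhibitors of cytokine and RAS signalling, had log2 differences of 0.42 and 0.39, Dusp5, a phosphatase of ERK, of -0.89, and Etv4, a transcription factor induced by FGF, of 1.40. Etv4 was low, at 0.72, 0.89 and 0.35 CPM in young and 2.86, 0.58 and 1.77 CPM in aged libraries. Its aged replicate 2 lay within the young range. Over the list the median was 0.12. Without aged replicate 2, edgeR called Fgf7 and Ccnd1 among these 4 lists.

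Pericyte markers, 8 of 8 tested, summed to 2125 to 2927 CPM in young and 2047 to 2430 CPM in aged libraries, with Higd1b at 0 in young replicate 3 and aged replicate 3. Schwann cell markers, 8 of 8 tested, summed to 83.1 to 202 and 202 to 244 CPM, and mesothelial markers, 8 of 8 tested, to 27.2 to 94.8 and 12.01 to 91.1 CPM, with Wt1 at 0 in aged replicate 1 and Upk1b at 0 there and in young replicate 1. Skeletal muscle markers, 6 of 8 tested, summed to 7.62 to 23.0 and 9.72 to 17.5 CPM, with Myh4 and Pvalb at 0 in young replicates 2 and 3. The part of these markers, of the mitochondrial share and of the libraries that stood apart in the members' differences was not tested.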

How the data were processed

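RNA of 6 aortas (3 young, 3 aged, 1 library per mouse) was sequenced single-ended with a SMARTER mRNA-Seq kit. The authors counted reads per gene, and these counts were deposited with FPKM values that the authors computed from them (counts scaled for gene length and library size). The build is mm10 per the labels, from the submitters' processing notes, and the aligner and counting tool are not given in the sources used here. Groups came from the labelled ages.

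In R 4.3.3, edgeR 4.0.16 filtered the counts (filterByExpr by group, minimum count 10, minimum total 15), normalized them by TMM and fitted quasi-likelihood models without covariates to all 6 libraries. Benjamini-Hochberg adjustment covered the 16612 genes tested, and a result was called below 0.05. Standard errors are the log2 difference divided by the square root of F. The edgeR p-values weigh the age difference against the spread between libraries of the same age. Those of the exact tests rank it among all regroupings of the libraries. Log2 CPM for ratios used a prior count of 2, and ratios were compared by exact two-sided permutation tests. FPKM served to compare levels between genes. On simulated counts with known changes, DESeq2 called more of the changed genes than edgeR or limma. A larger share of DESeq2's calls were also of unchanged genes. The counts were drawn with the spread that edgeR estimated, and edgeR was scored on a separate draw, so this does not rank the tools on the real data. GENCODE M21 held 55154 of the 55335 identifiers. Itgam had 2 rows, of which the larger was used.

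The members and gene lists were chosen with earlier results of these data known. The genes named are the members, the 5 of each pathway list with the smallest p, the 3 most abundant of each marker list where they make a point, Xist, Ddx3y and the 3 nearest to each member among genes whose mean was 1 CPM or more. Markers at 0 or below the filter, untested ligands, overlapping genes, the motifs and Gata4 were chosen after values were seen. So were Fgf9, Fgf10, Fgf18 and the markers Mfap5, Ptprc and Cd79a. A gene of the list of adaptors and kinases is not reported here.

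Results were recomputed with DESeq2 1.42.0, with limma 3.58.1 on log2-transformed FPKM (pseudocounts 1 and 0.1), with RLE factors, robust fitting or a prior count of 0.25, unfiltered or with 10 counts required in every library, without mitochondrial genes, with replicate blocks, and leaving libraries out.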

Additional observations from a re-analysis of the deposited data

How the results depend on the processing

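Over the whole table edgeR called 0 genes (1723 at an unadjusted p below 0.05) and DESeq2 338 (221 with a positive and 117 with a negative log2 difference). DESeq2 called 2 members and 2 other pathway genes (Ccnd1 and Fgf7). Limma called 0 of either at both pseudocounts, with 6 members (pseudocount 1) and 7 (pseudocount 0.1) at an unadjusted p below 0.05, against 4 by edgeR. Of all 16612 genes, limma had 2667 (pseudocount 1) and 2663 (pseudocount 0.1) at that level, against 1723 by edgeR. With each library left out in turn, edgeR called 0 to 110 genes of the table, 0 to 1 members and 0 to 2 other pathway genes, and the fit that leaves out aged replicate 2 gave every call, for which the cause was not tested. The log2 difference of Fgfr1 was -0.15 with limma at either pseudocount, -0.082 to 0.21 with each library left out in turn (negative without young replicate 1 and without aged replicate 3), and -0.0050 without young replicate 1 and aged replicate 2, a setting added after seeing the data. That of Fgf1 was 0.14 without aged replicate 3. Over all fits that leave out 1 library, the log2 ratio of Pdgfc to Pdgfd differed by -0.062 to 0.16, of Pdgfa to Pdgfb by -0.23 to 0.19, of Fgf1 to Fgf2 by -1.84 to 0.38 and of Pdgfrb to smooth muscle markers by -0.32 to 0.071, the last reaching 0.17 in the added setting. The other 8 members kept their sign under all 16 alternatives. On log2 FPKM the median difference of all genes lay at -0.12 (pseudocount 1) and -0.19 (pseudocount 0.1).

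Deviations of libraries with the same replicate number correlated at 0.079, 0.12 and 0.096, so the numbers were not taken to pair the mice. In a fit with a replicate block, 0 genes and 0 members were called by edgeR, and the log2 difference of Pdgfra was 1.16 and that of Fgf2 0.54. With 3 libraries a group, the exact tests of the ratios cannot go below 0.1.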

Other observations

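Fgf2 was among 8 genes (mean of 1 CPM or more) that lay at least 4-fold lower in both young replicate 3 and aged replicate 1 than in every other library, of 14085 genes compared. The others included Nek7, Mysm1 and Gata4, the last a transcription factor of heart and other mesoderm. The same count for the other pairs of libraries lay between 2 and 9 genes. This pattern was noticed in the data and then counted in the same data.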
